A study of Mus musculus with 6 samples.

Results

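The nitric oxide, natriuretic peptide and cGMP pathway was followed through 9 genes: the nitric oxide synthases Nos2 and Nos3, the natriuretic peptide Nppb, the natriuretic peptide receptors Npr1, Npr2 and Npr3, the phosphodiesterase Pde5a and the cGMP-dependent protein kinases Prkg1 and Prkg2. A member was taken where a row of the deposited array table was annotated to that gene alone. This gave 8 of the 9 members, each with 1 row, among 14860 genes in all, and Pde5a was not analysed here. The members were chosen with the comparison of the groups in view, so their differences are given as a description, without a test. Another 61 genes of the pathway, listed by their role, were tested. This list too was chosen with earlier results of these data known.

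RNA came from mouse aortic endothelial cells (animals of 4 weeks, strain C57/BL6, 5 generations) cultured with 20% serum, heparin and endothelial growth supplement, and was measured on 6 Affymetrix expression arrays. In the group titled ERK1/2 null (3 arrays) the cells had received a lentivirus with Cre recombinase, named egfp-Cre in every source label and in the genotype label of replicate 1, and Cre alone in the genotype labels of replicates 2 and 3. In the group titled ERK1/2 wild type (3 arrays) the lentivirus carried the green fluorescent protein without Cre. The genotype label gives both groups the same background, Erk1-/- with Erk2 fl/fl, so that by this label the control cells also lack Erk1 and the groups differ in Erk2 deletion and in the presence of Cre. The titles' group names are kept below. The labels call the arrays biological replicates and do not say whether they stand for separate animals or isolations, so the p-values measure the spread between these arrays.

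Cyclic GMP is a second messenger with more than 1 source. Nitric oxide synthases form nitric oxide from arginine, and nitric oxide switches on soluble guanylate cyclase. Natriuretic peptides instead bind receptors at the cell surface whose inner part is itself a guanylate cyclase. The messenger acts through cGMP-dependent protein kinases and is removed by phosphodiesterases. In the vessel wall, endothelial nitric oxide is known for relaxing the neighbouring smooth muscle through this route.

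The values are RMA expression on a log2 scale (robust multi-array average: background correction, normalization between arrays and a summary over probes), where 1 unit is a doubling. They compare arrays for 1 gene and do not rank genes by abundance. Array medians lay between 6.09 and 6.27, and arrays of 1 group correlated at 0.975 to 0.986. In a principal component analysis over genes, null and wild type arrays lay apart on component 1 (50.9% of the variance), and on component 2 (25.5%) the arrays numbered 1 lay apart from those numbered 2 and 3. No row used here named either targeted kinase, so the group labels could not be checked by the deleted gene.

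The endothelial label was set against defining markers. Of 15 endothelial markers 11 lay among the dimmest 33.3% of genes on the array, including Pecam1, Cdh5, Kdr, Tek, Vwf and Emcn, and only Eng, Flt1, Erg and Sox18 lay above that bound. For Pecam1, the adhesion molecule of endothelial junctions, the values were 3.95, 3.74 and 4.20 on the null arrays and 3.44, 3.76 and 4.12 on the wild type arrays. By the same bound 3 of 10 smooth muscle markers (Myh11, Des and Myocd), 1 of 10 fibroblast markers (Lum) and 5 of 7 macrophage markers were dim. The smooth muscle actin gene Acta2 stood at 12.93, 12.00 and 12.80 against 11.09, 11.08 and 12.02, and the smooth muscle myosin gene Myh11 at 4.56, 4.50 and 4.28 against 3.94, 3.96 and 4.08. A dim row can also come from probes that respond weakly, so these counts do not give the share of a cell type. RNA per cell and the number of cells of a type cannot be told apart in these bulk samples.

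**Figure D1:**
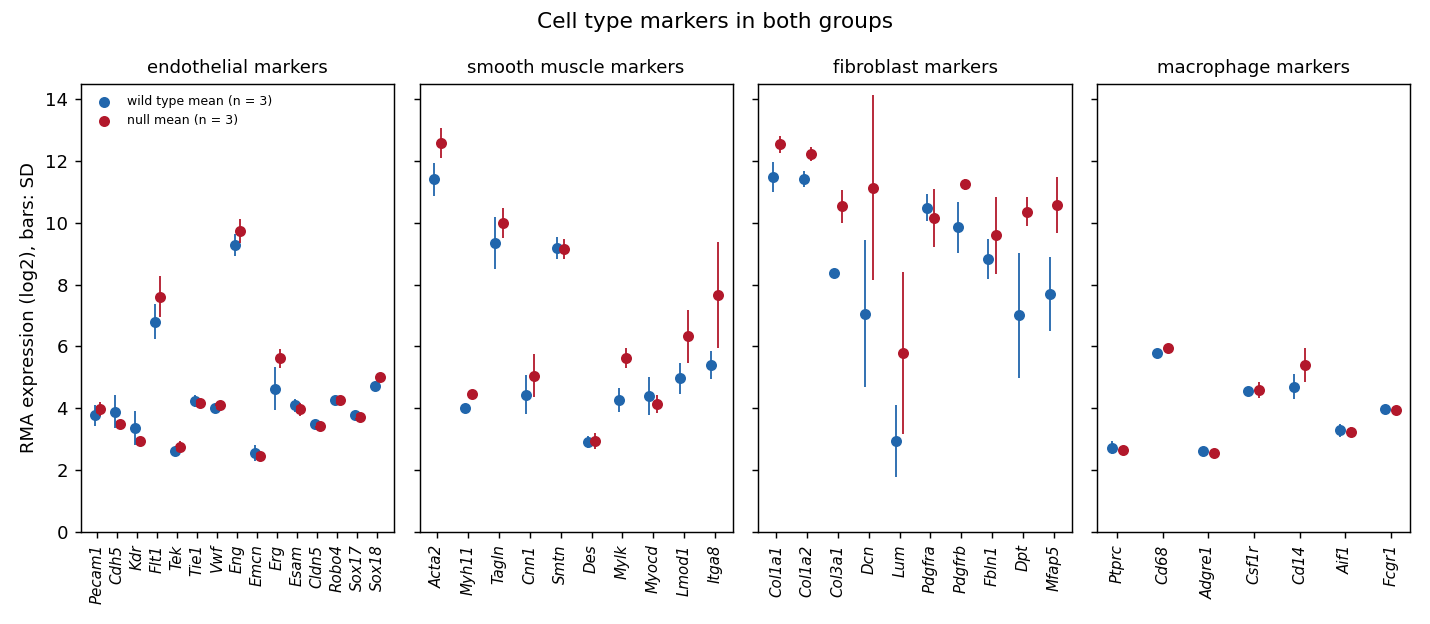
Mean RMA expression (log2) of each cell type marker in ERK1/2 wild type (blue) and ERK1/2 null (red) arrays, with the SD over 3 arrays as bars. In the dimmest 33.3% of genes lie 11 of 15 endothelial, 3 of 10 smooth muscle, 1 of 10 fibroblast and 5 of 7 macrophage markers.

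The sequences shown are the 250 bases before the annotated start of Prkg1, the member with the largest positive difference, and of Nppb, the member whose wild type arrays varied most. They come from RefSeq (GRCm38.p6), which held a window for 5 of the 8 members under their symbols. Prkg1 is known to be transcribed from alternative first exons, and the table holds 2 starts for it, both on the minus strand, at chr19:31765034-31765283 and chr19:31664371-31664620. The single array row of Prkg1 does not say which start was used. The Nppb window lies on the plus strand at chr4:147985650-147985899. Capitals mark a match, on either strand, to AP-1 (TGANTCA), the cAMP response element (TGACGTCA), an ETS motif (AGGAAG), the TATA box (TATAAA) or the E-box (CACGTG).
Prkg1, start at the higher coordinate: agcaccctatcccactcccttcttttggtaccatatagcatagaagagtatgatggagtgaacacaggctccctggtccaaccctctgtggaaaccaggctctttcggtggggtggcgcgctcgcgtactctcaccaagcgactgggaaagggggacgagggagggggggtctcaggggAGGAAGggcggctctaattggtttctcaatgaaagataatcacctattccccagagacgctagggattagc
Prkg1, start at the lower coordinate: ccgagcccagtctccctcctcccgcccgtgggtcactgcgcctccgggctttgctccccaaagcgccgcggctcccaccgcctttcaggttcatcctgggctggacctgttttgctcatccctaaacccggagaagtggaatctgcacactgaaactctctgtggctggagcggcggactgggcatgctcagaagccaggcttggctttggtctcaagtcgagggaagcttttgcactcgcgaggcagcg
Nppb: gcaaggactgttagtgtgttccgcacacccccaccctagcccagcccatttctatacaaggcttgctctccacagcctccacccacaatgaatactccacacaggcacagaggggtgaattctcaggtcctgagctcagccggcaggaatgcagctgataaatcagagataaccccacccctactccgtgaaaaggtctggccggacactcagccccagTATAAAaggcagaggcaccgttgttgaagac
The first Prkg1 window held 1 match to AGGAAG, 71 to 66 bases before the start, and the second matched none of the 5 motifs as written. Shorter forms of these motifs were not searched. The Nppb window held 1 TATA box, 31 to 26 bases before the start. Over 32851 promoter windows of the same length, 29.5% held the ETS motif AGGAAG, 12.4% the TATA box, 6.75% the AP-1 motif, 6.02% the E-box and 1.55% the cAMP response element. These are matches of letters, not binding sites.

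The comparison asked how the members' transcripts differ between cultures titled ERK1/2 null and wild type. The cGMP-dependent protein kinases stood in opposite order in the groups: Prkg1 was 5.83-fold higher and Prkg2 was 6.11-fold lower in ERK1/2 null cultures. The receptor gene Npr2 was 2.02-fold higher. The endothelial nitric oxide synthase gene Nos3 was at nearly the same low value on every array, while Nos2 was high on a single null array. Differences of Nppb and Npr3 were of 1 unit or more with groups that overlapped.

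Prkg1 encodes the kinase that carries cGMP signals in smooth muscle and platelets. Its expression was 5.94, 6.82 and 6.74 on the null arrays and 4.03, 3.63 and 4.21 on the wild type arrays (6.50 ± 0.49 against 3.96 ± 0.29, SD, n = 3 each). All null arrays lay above all wild type arrays, and the lowest null value was more than 1.5 units over the highest wild type value. The log2 difference of the means was 2.54. Within replicate numbers 1, 2 and 3 it was 1.91, 3.19 and 2.53, and it stayed between 2.38 and 2.86 in fits that left out arrays.

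Prkg2 encodes the second, membrane-attached cGMP-dependent kinase, known in intestine, kidney, brain and the growth plate of bone. Its expression was 4.84, 5.84 and 5.49 on the null arrays and 8.19, 8.14 and 7.67 on the wild type arrays (5.39 ± 0.51 against 8.00 ± 0.28, SD, n = 3 each). All null arrays lay below all wild type arrays. The log2 difference was −2.61, and within replicate numbers 1, 2 and 3 it was −3.35, −2.30 and −2.18. Replicate 1, which stood apart on component 2, had the smallest Prkg1 difference and the largest Prkg2 difference in size. Without replicate 1 of both groups the differences were 2.86 for Prkg1 and −2.24 for Prkg2.

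**Figure D2:**
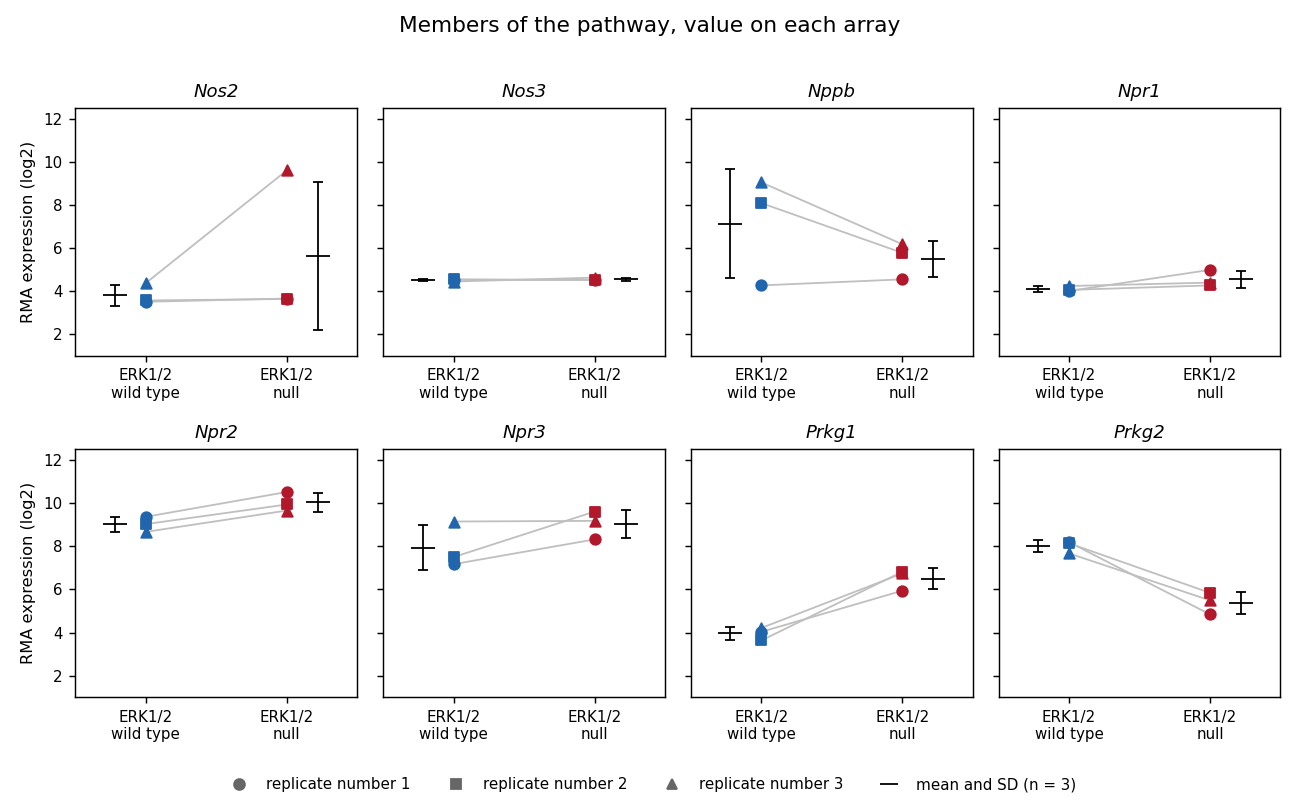
RMA expression (log2) of the 8 measured members on each of the 6 arrays, wild type in blue and ERK1/2 null in red, with grey lines joining arrays of the same replicate number and black marks for the mean and SD (n = 3). Prkg1 (3.63 to 4.21 against 5.94 to 6.82) and Prkg2 (7.67 to 8.19 against 4.84 to 5.84) separate the groups in opposite directions, and Nos2 reaches 9.60 on 1 null array.

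The natriuretic peptide receptors that make cGMP are Npr1, the receptor of the atrial and B-type peptides, and Npr2, the receptor of the C-type peptide. Npr2 expression was 10.52, 9.94 and 9.66 on the null arrays and 9.37, 9.03 and 8.67 on the wild type arrays (10.04 ± 0.44 against 9.02 ± 0.35, SD, n = 3 each). The groups did not overlap, with a gap of 0.29 between the nearest arrays, and replicate 1 was the highest array of each group. The log2 difference was 1.02, and it was close to this within every replicate number (1.15, 0.91 and 0.99). Npr1 lay among the dimmest 33.3% of genes, where RMA compresses differences. It measured 4.98, 4.26 and 4.39 against 4.00, 4.05 and 4.23 (4.54 ± 0.38 against 4.09 ± 0.13, SD, n = 3 each). The lowest null and the highest wild type array differed by only 0.03, and without null replicate 1 the Npr1 difference of 0.45 was 0.23.

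Npr3 encodes the clearance receptor, which binds natriuretic peptides without making cGMP and takes them into the cell. Its expression was 8.32, 9.61 and 9.18 on the null arrays and 7.17, 7.50 and 9.15 on the wild type arrays (9.04 ± 0.66 against 7.94 ± 1.06, SD, n = 3 each). The groups overlapped, because wild type replicate 3 exceeded null replicate 1. The log2 difference was 1.09, and it was 1.14, 2.11 and 0.03 within replicate numbers 1, 2 and 3. Without wild type replicate 3 it was 1.70.

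Nppb encodes the B-type natriuretic peptide, a hormone best known from the strained heart. Its expression was 4.54, 5.77 and 6.17 on the null arrays and 4.26, 8.08 and 9.04 on the wild type arrays (5.49 ± 0.84 against 7.13 ± 2.53, SD, n = 3 each). Replicate 1 was the lowest array of each group, and the groups overlapped. The log2 difference of −1.63 was the mean of unlike pairs, 0.28, −2.31 and −2.88. It was −3.07 without wild type replicate 1, −0.68 without wild type replicate 3 and −2.59 without replicate 1 of both groups. Replicates 2 and 3 alone therefore showed the lower Nppb value in ERK1/2 null cultures.

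Nos2 encodes the inducible nitric oxide synthase, which cytokines switch on in many cell types. It measured 3.65, 3.63 and 9.60 on the null arrays and 3.50, 3.56 and 4.37 on the wild type arrays (5.63 ± 3.44 against 3.81 ± 0.49, SD, n = 3 each). Null replicate 3 alone was high, and the other 5 arrays lay within 1 unit. The log2 difference of 1.82 rested on that array: it was −0.17 without it and 0.16 and 0.07 within replicate numbers 1 and 2. Within replicate number 3 it was 5.23, and wild type replicate 3 was also the highest of its group.

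Nos3 encodes the endothelial nitric oxide synthase, the source of nitric oxide in vessel lining. It measured 4.51, 4.51 and 4.62 on the null arrays and 4.52, 4.54 and 4.44 on the wild type arrays (4.55 ± 0.07 against 4.50 ± 0.05, SD, n = 3 each), among the dimmest 33.3% of genes. The difference of 0.05 was smaller than the SD of the null group, and its sign turned after subtraction of array medians (−0.02) and after quantile normalization (−0.05). RMA compresses differences at this level, so a small change would hardly show.

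**Figure D3:**
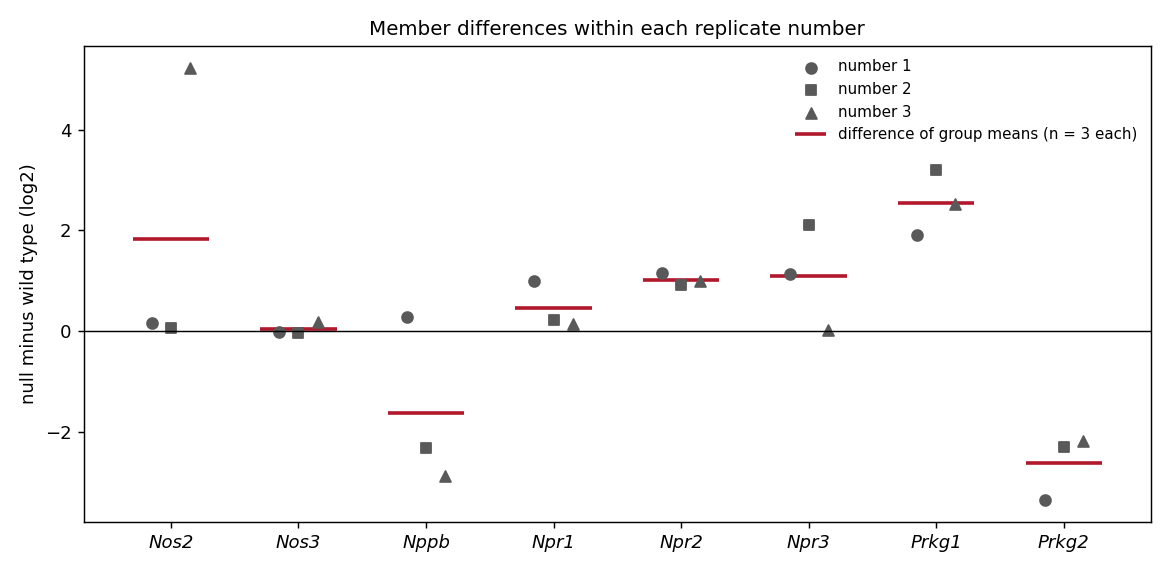
Log2 difference (ERK1/2 null minus wild type) of each member within replicate numbers 1, 2 and 3 (points) and between the group means (red lines, n = 3 each). Prkg1, Npr1, Npr2 and Prkg2 keep 1 sign in every pair, as do Nos2 and Npr3, whose smallest pair differences are 0.07 and 0.03.

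The spread between arrays of 1 group differed widely among the members. The pooled SD within groups was 2.46 for Nos2, 1.88 for Nppb and 0.88 for Npr3, at percentiles 99.9, 99.8 and 97.1 of all genes. It was 0.40 to 0.41 for Prkg1, Prkg2 and Npr2, 0.29 for Npr1 and 0.06 for Nos3, the last at percentile 2.61. The Nos2 value comes from null replicate 3.

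Of the 8 members 5 were higher and 1 was lower in ERK1/2 null within all 3 replicate numbers. Among the 5, Nos2 and Npr3 had overlapping groups and smallest pair differences of 0.07 and 0.03. The share of all genes with 1 sign in all 3 pairs is not given here. The groups did not overlap for 4 members (Prkg1, Npr1 and Npr2 higher, Prkg2 lower). Over all genes 31.0% had groups that did not overlap. The median log2 difference was 0.73 over the members and 0.02 over all genes. Because the members were chosen with this comparison in view, nothing is read from these counts or from the median.

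The genes whose pattern over the 6 arrays was most like that of Prkg1, by Pearson's r, were Serping1, Rras and C030006K11Rik (r of 0.998, 0.997 and 0.996). Serping1, the inhibitor of complement C1, was at 10.87 ± 0.71 in null and 6.72 ± 0.38 in wild type (SD, n = 3 each), and Rras, a small GTPase, at 9.77 ± 0.16 and 8.46 ± 0.17. Most like Prkg2 were Gfus, Bysl and Ncaph2 (0.996, 0.996 and 0.993). Gfus differed little in size, at 7.87 ± 0.04 in null and 8.03 ± 0.03 in wild type (log2 difference −0.16). Bysl, a ribosome assembly factor, was at 8.13 ± 0.14 and 8.81 ± 0.10, and Ncaph2, a condensin subunit, at 7.94 ± 0.07 and 8.51 ± 0.07. Values over 0.95 were reached by 240 genes for Prkg1 and by 446 for Prkg2, so a high r over 6 arrays was not particular to the genes named. The reason for these counts was not tested.

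Of the 61 other pathway genes measured, 6 rose in ERK1/2 null cultures, none fell and 55 did not pass (limma's linear model with empirical Bayes moderation, adjusted p under 0.05 over all 14860 genes). The genes that rose were Mme, Pde3a, Ddah2, Abcc5, Gucy1a1 and Pde2a. At an unadjusted limma p under 0.05, 2 were lower (Akt1 and Rgs2), and Slc7a2, Hspb6 and Crip2 were higher besides the 6 called. Such a count over all genes is not given here. The share called higher was 9.84%, against 5.35% of all genes, and the share called lower was 0%, against 6.12%. In either direction 11.5% of all genes were called. The median difference was 0.06, against 0.02 over all genes. These shares were not tested against each other. Because the list was chosen with earlier results of these data known, nothing is read from them. With the replicate number as a block, 10 of the 61 rose and 2 fell, while over all genes 8.92% were called higher and 7.76% lower. The labels state no pairing of arrays. The block, here and below, follows a pairing inferred from these same values, so its p-values depend on that pairing. A further 16 of 77 genes written had no row of their own here.

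**Figure D4:**
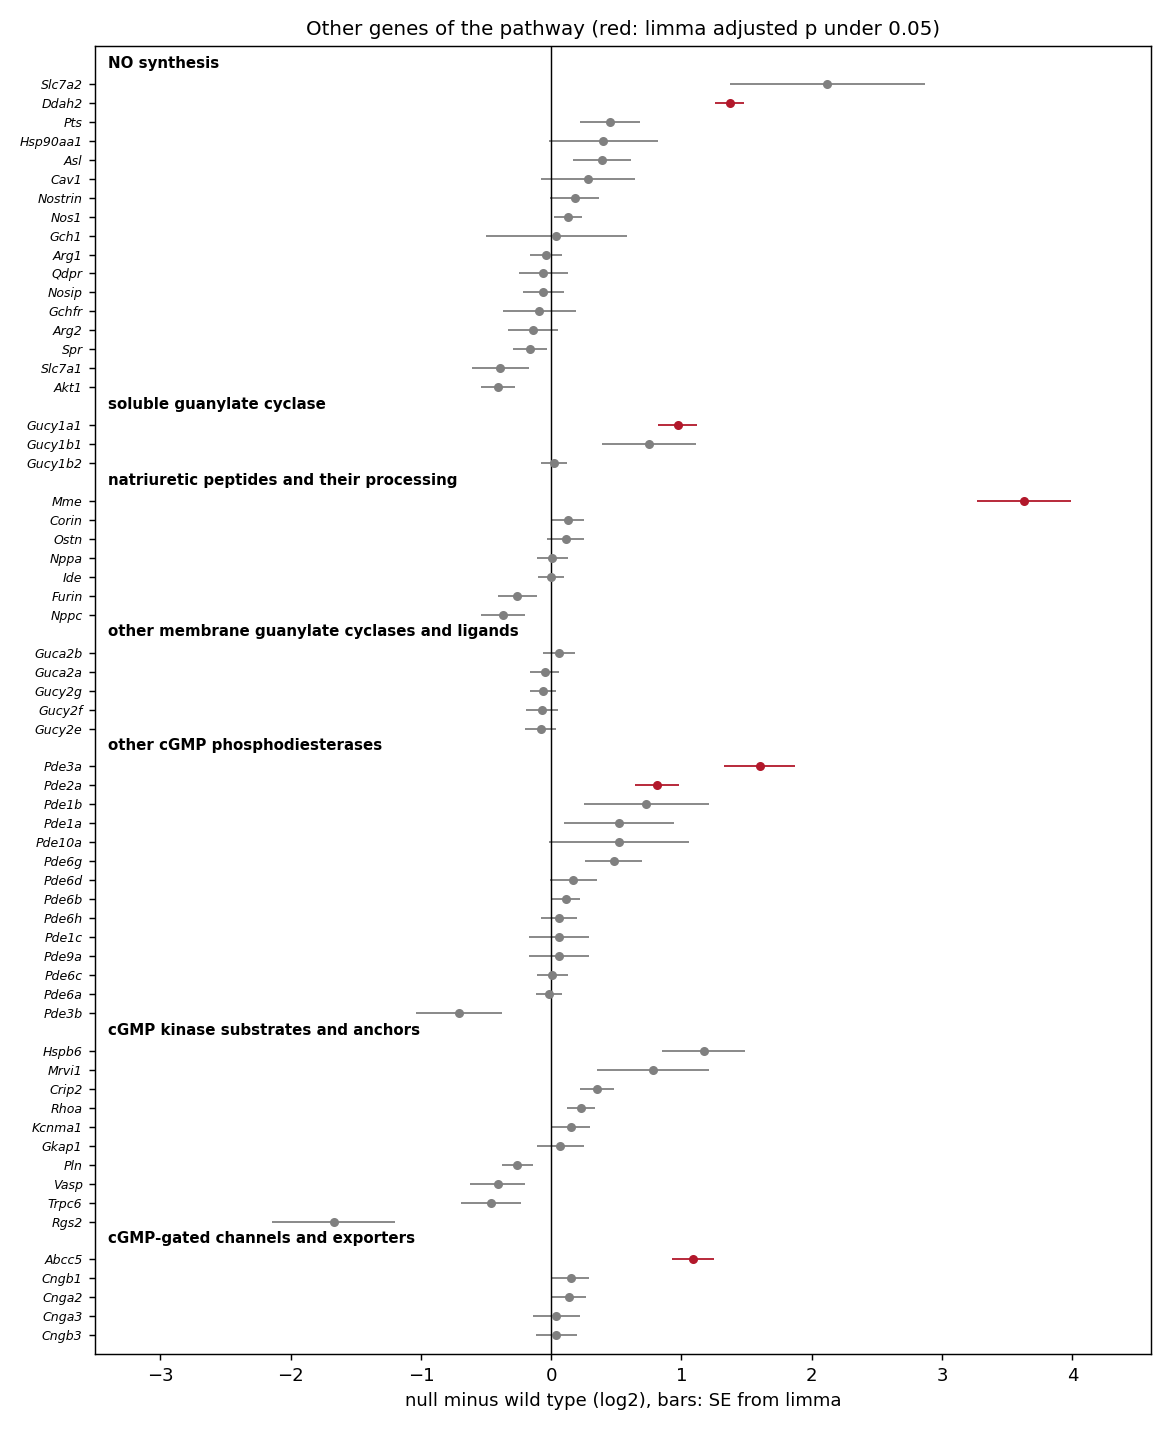
Log2 difference (ERK1/2 null minus wild type) of the 61 other pathway genes, grouped by role, with the SE from limma as bars. The 6 genes past an adjusted p of 0.05 (red) all lie above 0, from 0.81 for Pde2a to 3.63 for Mme.

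Of the 7 genes of peptides and their processing 1 rose. Mme encodes neprilysin, the surface protease that degrades natriuretic peptides and other short peptides. Its expression was 7.75, 8.03 and 8.87 on the null arrays and 5.15, 4.33 and 4.28 on the wild type arrays (8.22 ± 0.58 against 4.58 ± 0.49, SD, n = 3 each). All null arrays lay more than 2 units above all wild type arrays, a 12.4-fold increase (log2 difference 3.63, SE 0.36, limma adjusted p = 0.0033). The call held in all 7 fits that left out arrays. The peptide genes Nppa and Nppc, atrial and C-type, differed by 0.01 and −0.37 (limma adjusted p = 0.97 and 0.25), and the processing proteases Corin and Furin by 0.13 and −0.26 (0.59 and 0.34).

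Of 3 soluble guanylate cyclase genes, which encode the nitric oxide receptor, the alpha subunit gene Gucy1a1 rose. It measured 4.88, 5.02 and 5.30 against 3.99, 4.28 and 4.02, without overlap (log2 difference 0.97, SE 0.15, limma adjusted p = 0.013). Its partner subunit gene Gucy1b1 was at 3.16, 3.67 and 4.66 against 3.01, 3.14 and 3.08 (0.75, limma adjusted p = 0.26). The Gucy1b1 groups did not overlap, but the nearest arrays were only 0.01 apart. Its differences within replicate numbers 1, 2 and 3 were 0.15, 0.53 and 1.57. Both genes lay in the dimmest 33.3% of genes. The Gucy1a1 adjusted p was 0.052 without null replicate 2 and 0.052 without wild type replicate 3.

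Among 17 genes of nitric oxide synthesis and its control, 1 rose. Ddah2 encodes a dimethylarginine dimethylaminohydrolase, of the enzyme family that breaks down methylated arginines, natural inhibitors of nitric oxide synthases. It measured 8.31, 8.52 and 8.37 on the null arrays and 7.00, 7.02 and 7.06 on the wild type arrays (8.40 ± 0.11 against 7.03 ± 0.03, SD, n = 3 each). The increase was 2.59-fold, with the smallest spread among the called pathway genes (log2 difference 1.37, SE 0.11, limma adjusted p = 0.0018), and it held in all 7 fits that left out arrays. The arginine transporter gene Slc7a2 differed more but overlapped, 10.77, 8.50 and 10.24 against 8.86, 6.67 and 7.64 (log2 difference 2.12, limma adjusted p = 0.13). Its pairs were alike (1.91, 1.83 and 2.61), and with the replicate block it passed (limma adjusted p = 0.0036). The cofactor enzyme gene Gch1 and caveolin Cav1, which binds the endothelial synthase, differed by 0.04 and 0.28 (limma adjusted p = 0.97 and 0.71).

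Of 14 phosphodiesterase genes other than Pde5a, 2 rose. Pde3a encodes an enzyme that splits cAMP and is inhibited by cGMP. It measured 9.18, 9.14 and 8.53 against 7.80, 7.27 and 6.97, a 3.04-fold increase (log2 difference 1.60, SE 0.27, limma adjusted p = 0.015). Its adjusted p was 0.066 without null replicate 2, 0.055 without wild type replicate 2 and 0.052 without wild type replicate 3. Pde2a, which cGMP activates, was at 5.70, 5.90 and 5.97 against 5.37, 4.92 and 4.85, without overlap (log2 difference 0.81, SE 0.17, limma adjusted p = 0.033). The Pde2a call was the least stable, held in 2 of 7 fits that left out arrays (adjusted p up to 0.11, without null replicate 2) and lost after quantile normalization (0.059).

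With the replicate block, whose pairing was inferred from these same values, 3 more phosphodiesterase genes passed. The related gene Pde3b was at 5.94, 6.65 and 6.95 against 6.70, 7.35 and 7.62, with nearly equal pair differences of −0.76, −0.70 and −0.67 (log2 difference −0.71, limma adjusted p = 0.25, blocked 0.017). Pde3a and Pde3b lay in opposite directions in both fits, and only with the block did both pass. Pde1b and Pde10a were higher with the block (log2 differences 0.73 and 0.52, blocked limma adjusted p = 0.041 each; 0.41 and 0.63 without it).

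**Figure D5:**
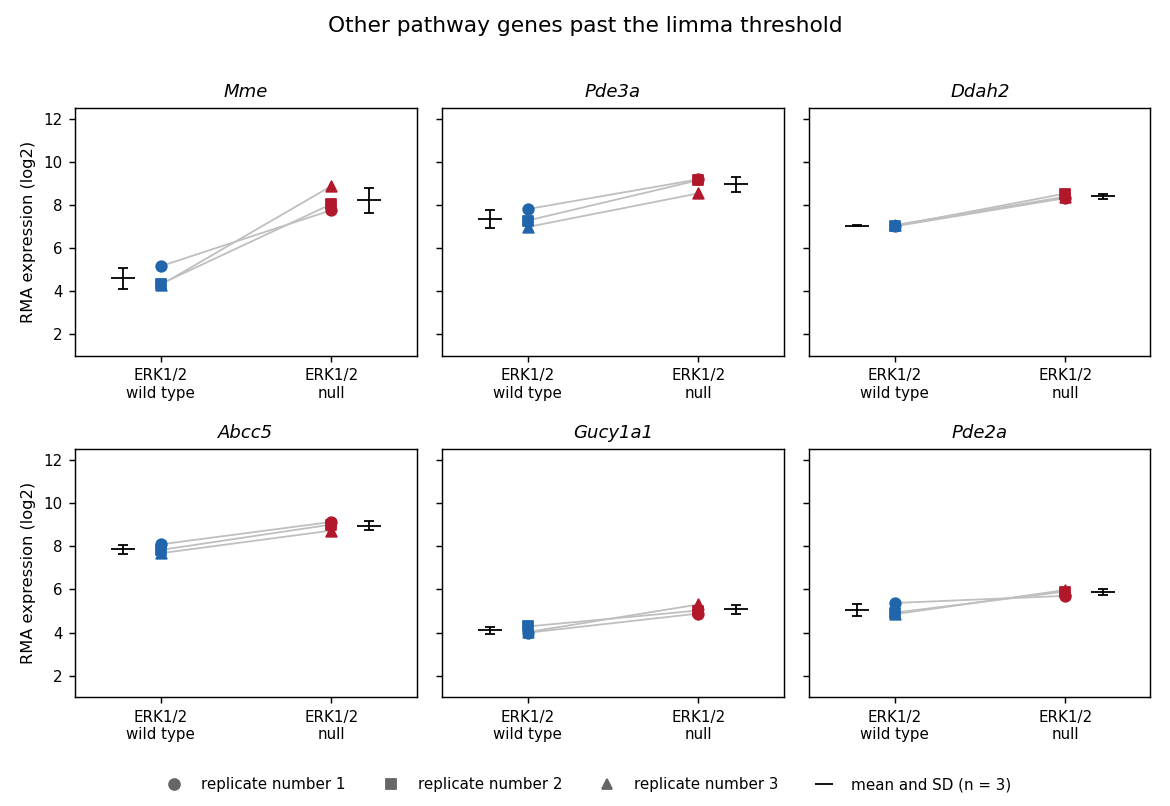
RMA expression (log2) on each array for the 6 other pathway genes past the limma threshold, wild type in blue and ERK1/2 null in red, with grey lines joining arrays of the same replicate number and the mean and SD (n = 3) in black. Mme spans the widest distance, 4.28 to 5.15 against 7.75 to 8.87, and Ddah2 has the tightest groups.

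Of 10 genes of cGMP kinase substrates and anchors none passed. The lowest p was that of Hspb6, a small heat shock protein phosphorylated by cyclic nucleotide kinases in smooth muscle, at 9.75, 9.38 and 8.89 against 8.74, 7.94 and 7.82 (log2 difference 1.17, SE 0.32, limma adjusted p = 0.066, blocked 0.0078). Rgs2, a regulator of G protein signalling and a substrate of the Prkg1 kinase, was at 8.23, 6.51 and 7.48 against 9.56, 8.55 and 9.11 (log2 difference −1.67, SE 0.47, limma adjusted p = 0.073, blocked 0.0051). Neither gene's groups overlapped. When arrays were left out, Hspb6 passed in 2 of 7 fits and Rgs2 in 1 of 7 (limma adjusted p of 0.032 to 0.18 and 0.037 to 0.18). Vasp, a cytoskeletal substrate used to read out kinase activity, differed by −0.41 and the anchor gene Mrvi1 by 0.78 (limma adjusted p = 0.29 and 0.33).

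Among 5 genes of cGMP-gated channels and exporters, the nucleotide exporter gene Abcc5 rose, from 8.09, 7.83 and 7.68 on the wild type arrays to 9.13, 9.01 and 8.73 on the null arrays (log2 difference 1.09, SE 0.16, limma adjusted p = 0.011). Leaving out null replicate 2 brought its adjusted p to 0.051. The 4 channel subunit genes differed by 0.04 to 0.15. None of 5 genes of other membrane guanylate cyclases and their ligands passed. All 5 differed by less than 0.25, and the lowest p was that of Gucy2e (−0.08, limma adjusted p = 0.74).

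Markers of other cell types were read beside these results, because Prkg1, Gucy1a1 and Hspb6 are also known from smooth muscle. By limma 1 of 10 smooth muscle markers (Mylk) rose and none fell, and 4 rose with the replicate block. Their summed level on the linear scale was 5727 to 11027 on the null arrays and 3146 to 5855 on the wild type arrays, and Acta2, whose groups overlapped (limma adjusted p = 0.085), gave 55.2% to 80.8% of it. Of 10 fibroblast markers 3 rose and none fell (8 with the block), with sums of 16339 to 32839 against 8565 to 11557. For comparison, 5.35% of all genes were called higher and 6.12% lower, and 8.92% were called higher with the block. The marker lists were also chosen with earlier results of these data known, and their shares were not tested against those of all genes. Of 15 endothelial markers none passed (2 at an unadjusted p under 0.05, 2 higher with the block), with sums of 967 to 1513 against 761 to 1144, of which Eng gave 63.8% to 70.3%. Of 7 macrophage markers none passed (none at an unadjusted p under 0.05 and 1 higher with the block), with sums of 145 to 190 against 138 to 149, and Ptprc and Adgre1 lay in the dimmest 33.3% of genes. The sums are weighted towards their brightest rows, so they compare arrays within a list and do not give the amount of a cell type. RMA values have no 0, so no marker could be called absent. The part of smooth muscle and fibroblast cells in the results was not tested.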

How the data were processed

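The deposited table holds log2 expression for 16775 probe set rows, made by the authors with RMA per the submitters' processing notes, whose version is not given in the sources used here. The values themselves (0.74 to 14.32, 0 missing) show the log2 scale. Rows that the platform annotation gave to 1 gene (14996) were kept, symbols were updated through the GRCm38.p6 gene table (14941 matched), and the row with the highest mean stood for a gene with several (135 genes). Differences were fitted on all 14860 genes with limma 3.58.1 in R 4.3.3 (lmFit and eBayes, 2-sided, Benjamini-Hochberg, threshold 0.05) and summarised with Python 3.11.15. The number of arrays limits precision.

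Members, lists and tests were chosen with earlier results of these data known. Named genes were the members, called pathway genes (at most 15), the lowest p of a list without a call, and the 3 genes most like the members with the largest difference in each direction; others were added after their values were seen.

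Across genes, arrays of equal replicate number deviated together from their group means (r = 0.565, 0.347 and 0.453). Arrays of unequal number gave r from −0.41 to 0.037. Deviations within a group sum to 0, so these r values are not independent of each other. The numbers were taken to pair the arrays. This pairing was inferred from the same values that the blocked fit used, so the blocked p-values depend on it. The labels do not state a pairing. The main fit has no block. Alternatives were other scalings, a filter on level, other priors, array weights, the mean of rows, the block, a stricter threshold and leaving out arrays. The fit without replicate 1 of both groups was added after the data were seen.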

Additional observations from a re-analysis of the deposited data

How the results depend on the processing

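Of the other pathway genes, 6 were called higher and 0 lower. With the replicate block these counts were 10 and 2, at an adjusted p under 0.01 they were 2 and 0, and after quantile normalization 5 and 1 (Akt1). Leaving out arrays gave 2 to 7 higher and 0 to 1 lower, with the lowest counts without null replicate 2 (2) and wild type replicate 3 (3). Mme and Ddah2 stayed called in every fit with 14 alternatives each. Over all genes, 795 were higher and 910 lower. The block gave 1326 and 1153, the stricter threshold 182 and 363, and leaving out arrays 271 to 651 higher and 459 to 727 lower (556 lower without replicate 1 of both groups). Fewer arrays leave fewer degrees of freedom. The median difference over the members was 0.73 and ranged from 0.27 (without null replicate 3) to 0.70 when arrays were left out. Under all 12 alternatives the differences of Prkg1, Npr1, Npr2 and Npr3 stayed above 0 and those of Prkg2 and Nppb below 0. Those of Nos2 and Nos3 changed sign. The median-centred and quantile scalings moved the median of all genes by −0.068 and −0.039. Dim rows, among them Nos3, Npr1 and Gucy1a1, limit what can be seen. The cause of the changes with the block was not tested.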
